A study of Rattus norvegicus with 2 samples.

Results

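Microglia are the resident macrophages of the brain. Around birth, a subset that gathers in developing white matter expresses Spp1 (osteopontin, a secreted matrix protein), Gpnmb (a glycoprotein of lysosomes and the cell surface), Lpl (lipoprotein lipase), Igf1 (a growth factor) and Csf1 (a growth factor whose receptor keeps microglia alive). Such cells are known as axon-tract-associated microglia, take up axonal and cellular debris, and share part of their gene set with the microglia that surround lesions in disease. Transcription factors of the MiT/TFE family, which include Mitf and Tfeb, drive lysosome genes and Gpnmb in several kinds of macrophage.

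The cells described here, called members, were non-cycling microglia with at least 1 UMI (unique molecular identifier, 1 counted RNA molecule) of Gpnmb or Lpl and a high UMI share of Spp1, Gpnmb, Lpl, Igf1 and Csf1 together. They were chosen by gates on each cell's counts. A cell needed at least 200 genes, at most 20% mitochondrially encoded UMIs, at least 0.8% of UMIs from the C1q genes C1qa, C1qb and C1qc, under 0.15% from the border macrophage genes Mrc1, Pf4, Ms4a7 and Stab1, and no UMI of 6 cycle genes (Top2a, Mki67, Ccnb1, Cdc20, Mcm5 and Mcm6). Of the 1798 such cells that carried Gpnmb or Lpl, those above the median share of the 5 genes, taken over both libraries together, gave 899 members of 12670 barcodes in all. The other 899 are called lower-scoring cells, and the 2505 cells past the same gates without Gpnmb or Lpl are called negatives.

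The study compared hippocampal microglia of rat embryos on gestational day 20 that had or had not been exposed to dexamethasone, a synthetic glucocorticoid, before birth. Cells were sorted by flow cytometry and captured in droplets as 1 library per group, each a pool of 7 male embryos. The strain, the dose and the days of exposure are not given in the sources used here. In the dexamethasone library 42611920 UMIs fell on 4328 barcodes, of which 366 were members. The control library had 69940778 UMIs on 8342 barcodes, of which 533 were members. The libraries shared 5 barcodes. With 1 library a group there was no replicate and no test, so exposure, pool, capture and sequencing run cannot be told apart. Intervals are at the 95% level and cover counting error only.

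The values that chose the members are given first, as a description. Levels are CPM, the UMIs of a gene per 1000000 UMIs of all cells of that class, summed within a library. Gpnmb stood at 854 CPM in dexamethasone members and 772 CPM in control members, and was 0 in negatives by the rule. Lpl stood at 158 and 140 CPM in members and was likewise 0 in negatives. Both carriers of the gate were thus at similar levels in the members of the 2 libraries. Spp1 stood at 1291 CPM in dexamethasone members against 113 CPM in negatives, and at 1371 against 61.0 CPM in the control library. Igf1 stood at 1390 against 387 CPM and at 1502 against 334 CPM. Csf1 stood at 153 against 8.72 CPM and at 128 against 8.97 CPM. All 3 genes were higher in members than in negatives in both libraries, as the rule requires of their sum.

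The boundary between members and lower-scoring cells fell at 0.128% of a cell's UMIs, with no gap in the scores. The 5 members just inside it had 0.127939 to 0.128411% and the 5 cells just outside 0.127438 to 0.127892%. The median score was 0.230% in dexamethasone and 0.254% in control members, with highest values of 3.65% and 2.82%. The boundary is a median, so these values do not tell whether members form a separate type. Among negatives, 45 of 769 dexamethasone cells (5.85%) and 71 of 1736 control cells (4.09%) had a score at or over the same value without Gpnmb or Lpl.

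The high summed Spp1 of members follows from the rule, which counts Spp1 in the score, while most single members had no Spp1 UMI. No Spp1 UMI was found in 215 of 366 dexamethasone members (58.7%, Clopper-Pearson interval 53.5 to 63.8%) and in 287 of 533 control members (53.8%, 49.5 to 58.1%). After each cell was thinned to 3800 UMIs, those shares were 59.7% and 58.3%. Cells with 10 or more Spp1 UMIs made up 20.8% of dexamethasone and 27.0% of control members and held 94.4% and 94.6% of the members' Spp1 UMIs. Spp1 UMIs were thus counted in a minority of members, at up to 320 in 1 dexamethasone cell and 335 in 1 control cell. A count of 0 in a droplet does not show that a cell lacks the RNA. The cells are therefore named here by their rule.

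Igf1 was the most widely carried of the 5 genes. At least 1 Igf1 UMI was found in 98.9% of dexamethasone and 98.3% of control members, against 82.8% and 74.3% of negatives. Erythroid-like cells, which should lack Igf1, carried it in 5.32% and 14.96%, at median depths of 18127 and 21479 UMIs against 10078 and 9759 UMIs in members. Igf1 gave 36.1% and 38.4% of the members' score UMIs, Spp1 33.6% and 35.0%, and Gpnmb 22.2% and 19.7%. Igf1 led the 5 genes in 58.2% of dexamethasone members, Spp1 in 18.3% and Gpnmb in 17.5%. In control members the shares were 55.2%, 22.7% and 16.9%. All 5 genes were found together in 11.2% and 12.9% of members.

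**Figure D1:**
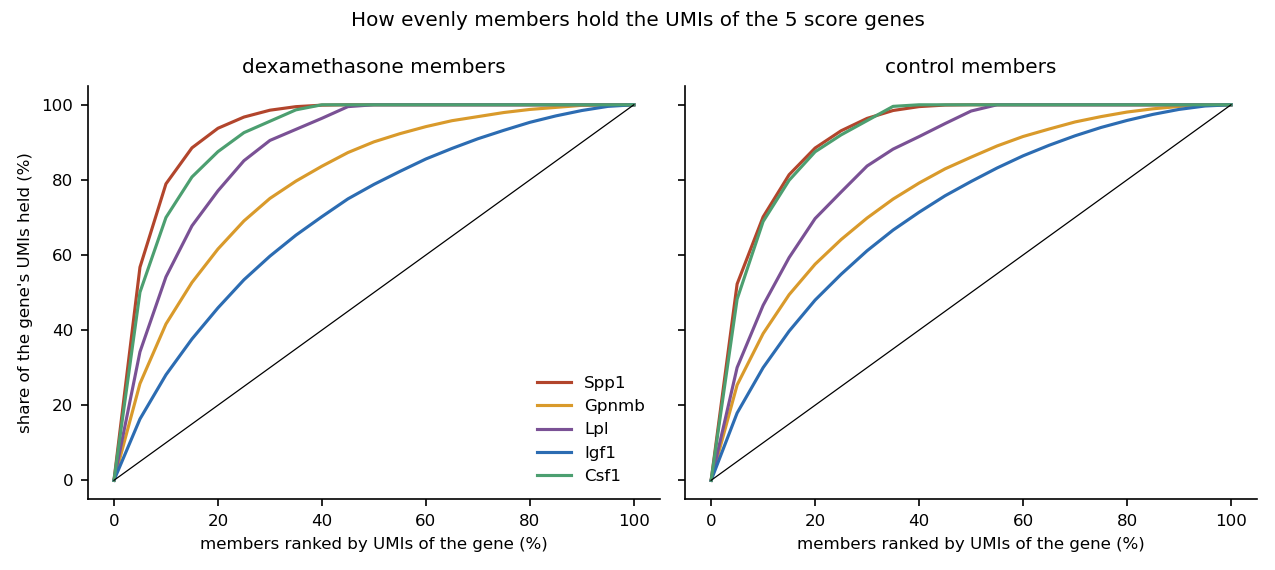
Share of a gene's UMIs (vertical axis, %) held by the members that carry most of it, ranked by UMIs of that gene (horizontal axis, %), for the 5 score genes in each library; the straight line marks equal UMIs in every cell. The 36 dexamethasone members with most Spp1 held 78.3% of its UMIs and the 53 such control members 70.1%, while Igf1 lies closest to the straight line.

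Among all genes outside the rule, a compact set was higher in members. The threshold was a 2-fold higher CPM than in negatives in both libraries, over the 2680 genes with at least 100 UMIs over the 2 classes and at least 50 CPM in 1 of them, in each library. It was passed by 61 genes (2.28% of those compared), and 36 genes (1.34%) were at least 2-fold lower in both. The dexamethasone library alone had 73 genes and the control library 76 past 2-fold higher, so the 61 shared genes were 83.6% and 80.3% of those sets. Of genes 2-fold lower, the shared 36 were 92.3% of the dexamethasone and 63.2% of the control set. Members were also deeper than negatives, with a median of 10078 against 7145 UMIs in the dexamethasone and 9759 against 6012.5 UMIs in the control library. A cell with more UMIs passes the Gpnmb or Lpl gate more easily. Ratios after thinning and reapplying the whole rule are given below for Tnfsf18 and Fabp5, and thinned medians for some lists. The other ratios below stand without a thinned value. Because both classes come from the same library, and the negatives were set by the same rule, the ratios of members over negatives describe the members and test nothing.

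**Figure D2:**
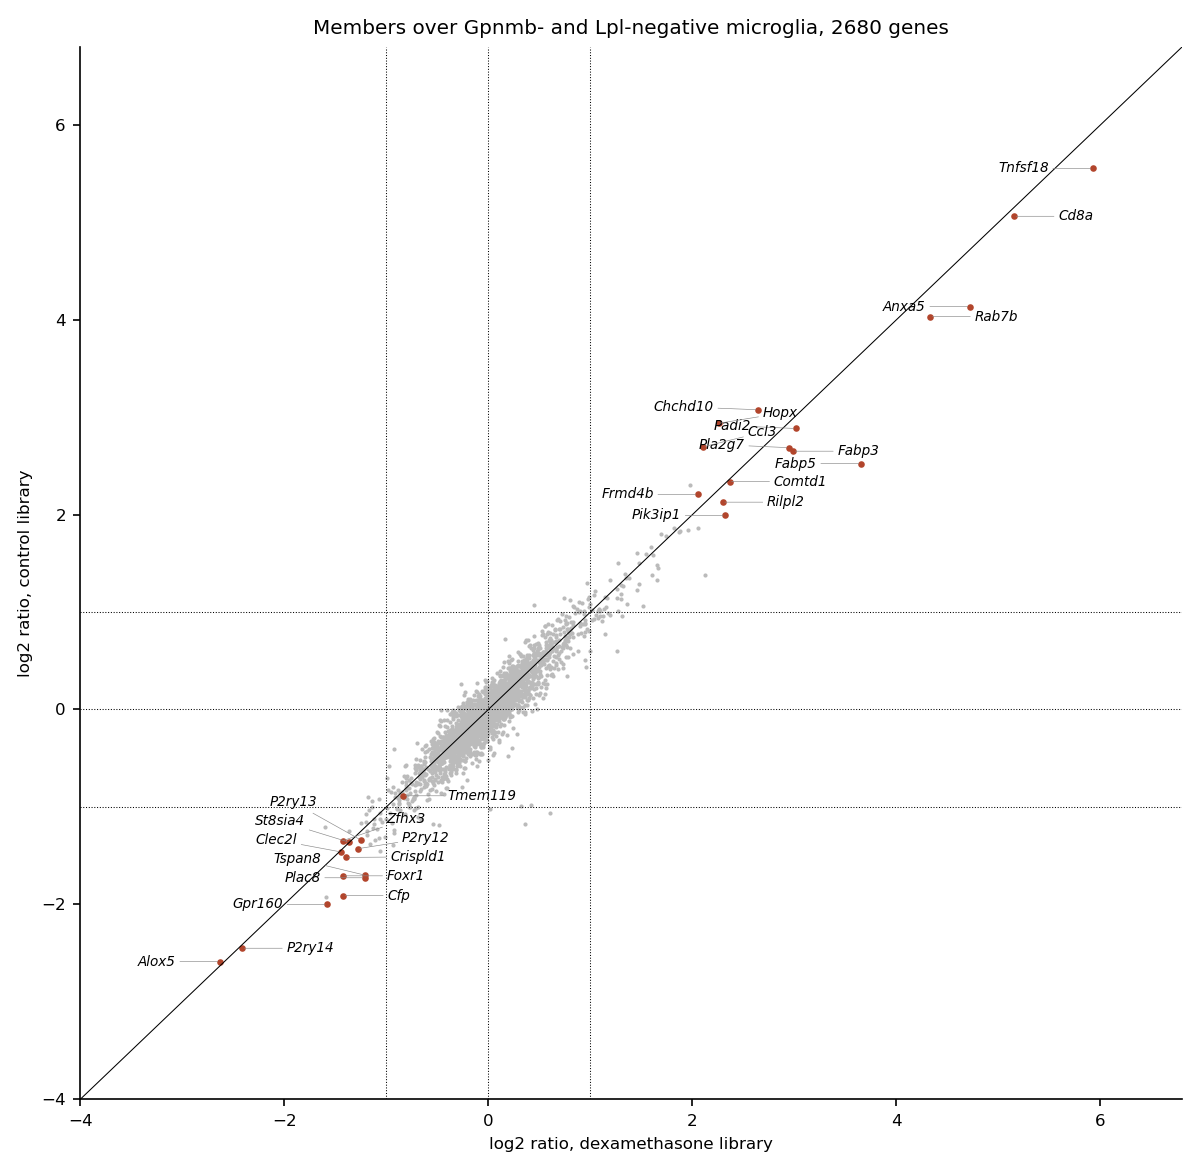
Log2 ratio of CPM in members over Gpnmb- and Lpl-negative microglia in the dexamethasone library (horizontal) and the control library (vertical) for 2680 genes outside the rule; each grey point is 1 gene, red points are named genes among the 15 highest and 15 lowest, and Tmem119, dotted lines mark 0 and 2-fold, and the solid line marks equal ratios. Tnfsf18 and Cd8a lie at the upper end and Alox5 and P2ry14 at the lower end in both libraries.

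The highest ratios among these 2680 genes belonged to surface and signalling genes. Tnfsf18, which encodes the ligand GITRL of the tumour necrosis factor family, had 72.7 CPM in dexamethasone members and 1.197 CPM in negatives, which gave log2 5.93 (4.86 to 7.25). In the control library it had 54.7 and 1.17 CPM, which gave log2 5.55 (4.76 to 6.48). Thinned, the ratios were 4.26 and 4.37. Cd8a, the alpha chain of the CD8 co-receptor, best known from T cells, stood at 177 against 4.96 CPM (log2 5.15, 4.62 to 5.74) and at 231 against 6.90 CPM (5.06, 4.73 to 5.41). Cd8a was carried by 39.1% of dexamethasone and 43.5% of control members, and by 2.73% and 2.71% of negatives. In border-macrophage-like cells it was found in 0 of 208 and 7 of 472 (1.48%). The Clopper-Pearson interval of the zero reaches 1.76%. After thinning, 26.7% and 35.7% of members carried it against 1.97% and 2.17% of negatives.

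Anxa5, which encodes annexin A5, a protein that binds exposed phosphatidylserine, stood at 176 against 6.67 CPM in the dexamethasone library and at 194 against 11.03 CPM in the control. Rab7b, a small GTPase of late endosomes, stood at 131 against 6.498 CPM and at 128 against 7.8 CPM. Their log2 ratios were 4.72 and 4.13 for Anxa5 and 4.33 and 4.03 for Rab7b. Both were more than 10-fold higher in members of either library. Neutrophil-like cells also carried Anxa5, in 23 of 42 dexamethasone and 16 of 27 control cells, so the gene does not mark members alone.

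Genes of lipid handling are given next as a theme and not by rank, since other genes had ratios between theirs. Fabp5, a fatty acid binding protein, stood at 232 against 18.5 CPM (log2 3.65, 3.36 to 3.95) and at 205 against 35.7 CPM (2.52, 2.36 to 2.69). The 2 intervals did not overlap, and thinned ratios were 2.67 and 2.58. Fabp3, its heart-type relative, stood at 122 against 15.4 CPM and at 124 against 19.7 CPM. Pla2g7, a phospholipase that hydrolyses platelet-activating factor and oxidised phospholipids, stood at 137 against 17.8 CPM and at 137 against 21.2 CPM. Fabp3 and Pla2g7 were thus at nearly equal levels in the members of both libraries. Over the list of lipid uptake, storage and lipoprotein genes, 26 of 38 measured genes were higher in members of both libraries, where 26.3% of 9550 measured genes were. A gene counted as measured with at least 20 UMIs over members and negatives in each library. At least 1.5-fold higher in both were 11 of the 38, where 5.03% of all measured genes were. The list median was 0.41 in the dexamethasone and 0.34 in the control library, beside -0.10 and -0.15 over all measured genes. Trem2, a lipid-sensing receptor, stood at 1485 against 807 CPM and at 1702 against 993 CPM. Apoe (apolipoprotein E) stood at 14717 against 11804 CPM and at 16385 against 13297 CPM. Lpcat2 went the other way, with log2 ratios of -1.17 and -1.04.

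Enzymes of sterol and fatty acid synthesis were also higher, 19 of 22 in both libraries, with a median of 0.63 in each. Of all measured genes, 26.3% were higher in both and 5.03% at least 1.5-fold. Sqle (squalene epoxidase) stood at 67.8 against 33.2 CPM and at 78.1 against 34.7 CPM. Fdps (farnesyl diphosphate synthase) had log2 ratios of 0.93 (0.73 to 1.13) and 0.98 (0.84 to 1.13). Of the 22 genes, 9 were at least 1.5-fold higher in both and 0 at least 1.5-fold lower, where 7.31% of all measured genes were.

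Lysosome genes were higher as a group. Of 44 measured proteases, hydrolases, proton pump subunits and membrane proteins, 39 were higher in members of both libraries and 17 at least 1.5-fold, with medians of 0.67 and 0.53. Thinned, the medians were 0.64 and 0.56. Of all measured genes, 26.3% were higher in both and 5.03% at least 1.5-fold. Ctsd (cathepsin D) stood at 1712 against 513 CPM in the dexamethasone and at 1973 against 575 CPM in the control library. Cd63, a tetraspanin of late endosomes, stood at 3510 against 1167 CPM and at 3931 against 1236 CPM. Both were about equally far above negatives in each library, with log2 ratios of 1.74 and 1.78 for Ctsd and 1.59 and 1.67 for Cd63. Cst3 (cystatin C, a secreted inhibitor of cathepsins) stood at 35870 against 20773 CPM and at 43957 against 26309 CPM. The group did not move as 1 block, since Ctsh, Ctss, Lamp2, Laptm4a and Man2b1 were lower in members of both libraries. Those 5 genes were named after their values were seen. Ctsh had log2 ratios of -0.62 and -0.77.

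Of the MiT/TFE factors, Mitf stood at 57.5 against 13.2 CPM in the dexamethasone library (log2 2.13, 1.75 to 2.52) and at 42.5 against 14.97 CPM in the control (1.505, 1.21 to 1.80). Tfeb stood at 30.3 against 10.6 CPM and at 27.9 against 12.5 CPM. Their relatives did not follow, with Tfec at log2 ratios of -0.33 and -0.83 and Tfe3 at 0.08 and -0.70. Rragc, a Rag GTPase that relays amino acid supply from the lysosome, stood at 152 against 77.1 CPM and at 155 against 70.5 CPM. In all, 8 of 13 measured genes of the list of MiT/TFE factors and GPNMB partners were higher in both libraries and 3 lower. Of all measured genes, 26.3% were higher and 50.7% lower in both.

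Because Gpnmb defines the gate and Mitf was higher, the promoters of the genes in question were read for the letters that MiT/TFE proteins are known to bind. The windows are the 250 bases before each start site in RefSeq's table for the GRCr8 assembly, whereas the counts were made on Rnor_6.0. The motif TCACATGA, the M-box, was found on either strand in Gpnmb, Cd63 and Fabp3, and TCACGTGA, which reads the same on both strands, in Ctsd. Stretches around them are shown 5′ to 3′ on the gene's strand, with the motif in capitals, to show what the letters look like in 1 gene of the gate and 3 genes at least 2-fold higher in members.
Gpnmb, chr4:79341005-79341127, plus strand: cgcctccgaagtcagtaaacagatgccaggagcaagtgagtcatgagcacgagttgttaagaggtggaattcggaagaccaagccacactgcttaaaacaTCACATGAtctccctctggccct
Cd63, chr7:1921997-1922064, plus strand: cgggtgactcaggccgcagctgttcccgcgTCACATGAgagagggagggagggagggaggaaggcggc
Fabp3, chr5:147936043-147936110, plus strand: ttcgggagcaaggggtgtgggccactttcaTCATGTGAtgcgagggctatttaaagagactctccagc
Ctsd, chr1:206968822-206968862, minus strand: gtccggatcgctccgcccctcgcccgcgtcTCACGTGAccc
The motif began 23 bases before the start of Gpnmb, 117 before Cd63, 52 before Fabp3 and 11 before Ctsd. In Fabp3 the capitals show the M-box as its reverse complement.

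TCACATGA stood in 265 of 27457 promoters of the table (0.965%). Of the 61 genes at least 2-fold higher in members, 50 had a promoter in the table and 3 held it (6%), namely Cd63, Fabp3 and Vegfb, beside 1.17% of the 2138 compared genes with a promoter. TCACGTGA was held by Ctsd, Ifi30 and Mfsd1, again 6%, beside 2.25% of the compared genes with a promoter and 0.743% of all. Of the 26 genes at least 2-fold lower with a promoter, 0 held either motif. The cores CACGTG and CACATG, which lie within these motifs, were in 18% and 14% of the higher genes, beside 9.49% and 7.11% of the compared genes. The AP-1 motif TGACTCA was in 10%, beside 3.32%, and AGGTCA, which nuclear receptors bind, in 16%, beside 11.3%. The extended M-box, with 1 more letter at each end, was in 0%, beside 0.374%. The ETS motifs GAGGAAGT, GGAAGTG (which overlaps it) and TTTCCGG were in 2%, 4% and 2%, beside 2.90%, 15.5% and 7.39%. These counts are small, and the 10 motifs were read on both strands after the expression values were known, so the shares describe these windows only. Mfsd1, Vegfb and Ifi30 were named after their values were seen. A match of letters is not a binding site, and 2 of the 5 score genes, Lpl and Csf1, were not found in the table.

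Genes of axon-tract and disease-associated microglia outside the rule were mostly higher. Of 31 measured, 25 were higher in members of both libraries and 18 at least 1.5-fold, with medians of 0.83 and 0.88. Thinned, the medians were 0.82 and 0.84. Of all measured genes, 26.3% were higher in both and 5.03% at least 1.5-fold. Cd9 (a tetraspanin) stood at 967 against 245 CPM and at 869 against 176 CPM. Lgals3 (galectin-3) stood at 68.9 against 15.4 CPM and at 42.0 against 10.04 CPM. The list also had members with few or no counts. Cst7, Mmp12, Postn, Atp6v0d2 and Dkk2 had 0 UMIs in members of both libraries, and Itgax (CD11c) had 3.36 against 3.42 CPM and 1.44 against 2.51 CPM. A total of 0 in the 3863398 UMIs of dexamethasone members allows up to 0.777 CPM, and in the 5553712 UMIs of control members up to 0.540 CPM. The list was drawn up with earlier results of these data known, so its direction is not independent evidence.

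**Figure D3:**
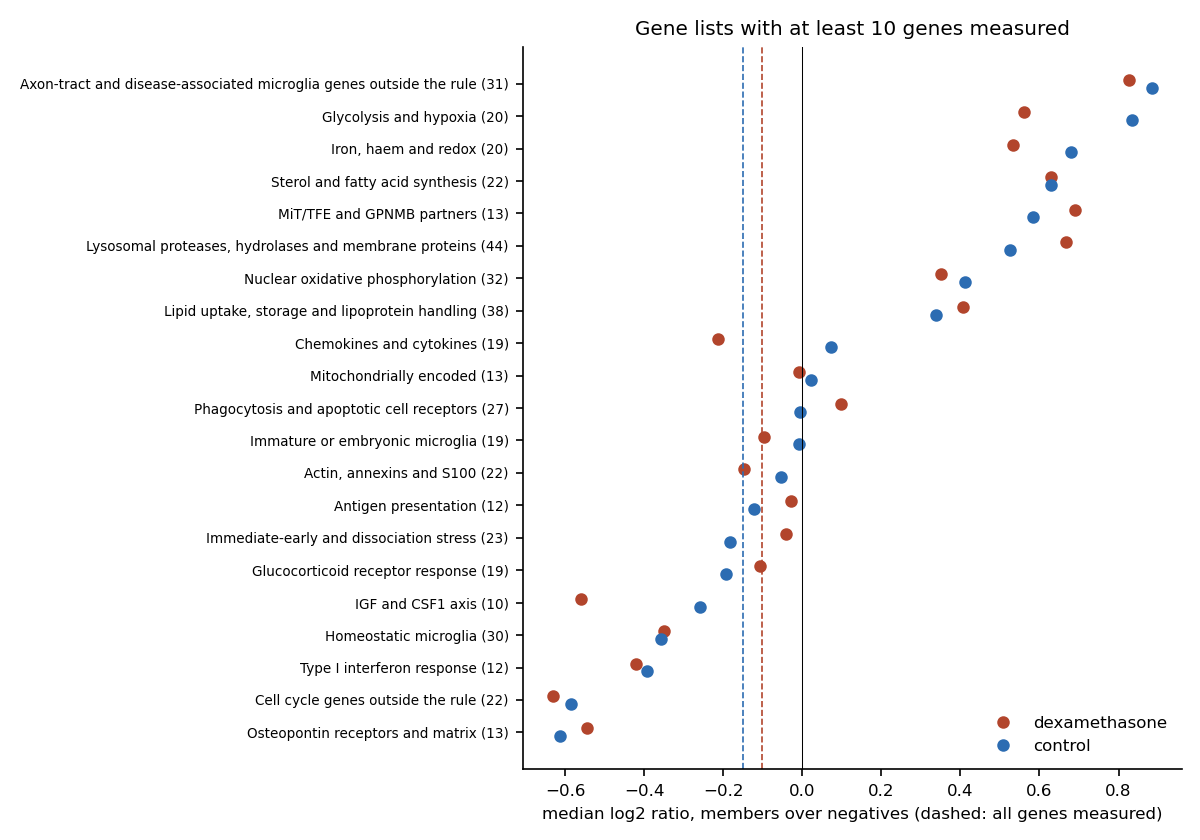
Median log2 ratio of members over negatives (horizontal axis) for each gene list with at least 10 measured genes, with their number in parentheses; red points are the dexamethasone and blue points the control library, and dashed lines mark the median over all measured genes, -0.10 and -0.15. Lists of axon-tract, glycolysis, iron, sterol and lysosome genes lie to the right in both libraries, and osteopontin receptor, cycle, interferon and homeostatic genes to the left.

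By RNA, most genes of glycolysis and hypoxia and of nuclear oxidative phosphorylation were higher in members, unlike the mitochondrially encoded genes. Of 20 measured genes of glycolysis and hypoxia, 18 were higher in both libraries, where 26.3% of all measured genes were, with medians of 0.56 and 0.83. Aldoa (aldolase A) stood at 820 against 434 CPM and at 882 against 414 CPM, and Mif (macrophage migration inhibitory factor) at 615 against 314 CPM and at 541 against 220 CPM. Adm (adrenomedullin, a hypoxia-responsive peptide) had log2 ratios of 2.52 and 3.07. Hk2 (hexokinase 2) was the 1 gene at least 1.5-fold lower in both, at 231 against 466 CPM and 203 against 441 CPM. Of 32 nuclear genes of oxidative phosphorylation, 30 were higher in both, beside the same 26.3%, by a median of 0.35 and 0.41. The 13 mitochondrially encoded genes had medians of -0.01 and 0.02.

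Iron and redox genes were higher in both libraries in 18 of 20 cases, where 26.3% of all measured genes were, with medians of 0.53 and 0.68. Ftl1 (ferritin light chain) stood at 11761 against 6884 CPM in the dexamethasone and at 7159 against 4034 CPM in the control library. Prdx1 (peroxiredoxin 1) had log2 ratios of 0.93 and 0.88, and Mt1 (metallothionein 1) of 1.30 and 1.14. Ribosomal protein genes went the other way, from 17.0% of UMIs in negatives to 14.7% in dexamethasone members and from 14.6% to 12.6% in control members.

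Chemokines were split. Ccl3 stood at 418 against 97.0 CPM and at 422 against 65.1 CPM, and Ccl7 at 120 against 37.3 CPM and at 104 against 29.8 CPM. Both attract monocytes. One dexamethasone member held 203 of 1615 Ccl3 UMIs (12.6%). Ccl7 was found in 57 dexamethasone and 80 control members, and 2 cells held 25.2% and 36.0% of its UMIs there. Ccl12 was lower in members, with log2 ratios of -1.07 and -1.64. Of the 19 measured chemokine and cytokine genes, 8 were higher in both libraries and 9 lower, where 26.3% and 50.7% of all measured genes were. The list medians were -0.21 and 0.07, and after thinning 0.05 and 0.17. Egr2, an early growth response factor, stood at 21.7 against 0.855 CPM and at 23.6 against 1.52 CPM, while the list of early and dissociation stress genes as a whole had medians of -0.04 and -0.18. Ier3 of that list was lower, with log2 ratios of -0.82 and -1.07.

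Lower in members were genes of mature, surveying microglia. P2ry12, a purinergic receptor that guides microglial processes to ATP, stood at 96.5 against 234 CPM in the dexamethasone library (log2 -1.28, -1.45 to -1.11) and at 109 against 294 CPM in the control (-1.43, -1.56 to -1.30). P2ry13, its neighbour in function, stood at 47.4 against 113 CPM and at 55.8 against 141 CPM. Tmem119, a microglial membrane protein, stood at 53.1 against 94.6 CPM and at 66.4 against 123 CPM. All 3 were lower in members of each library. Of 30 measured homeostatic genes, 21 were lower in both, where 50.7% of all measured genes were, and 8 at least 1.5-fold, with medians of -0.35 and -0.36. Thinned, the medians were -0.37 and -0.25. The summed level of the list was nevertheless higher in members, at 42843 against 29613 CPM and 51711 against 36569 CPM, and Cst3, which the list of lysosome genes also holds, gave most of that sum.

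Among the 2680 genes past the count filter, the lowest ratios were those of Alox5 and P2ry14. Alox5 (5-lipoxygenase, the enzyme that starts leukotriene synthesis) stood at 8.54 against 53.0 CPM and at 9.72 against 58.5 CPM, with log2 ratios of -2.63 and -2.59. P2ry14, a receptor for UDP-sugars, had ratios of -2.41 and -2.45. Cfp (properdin, a complement factor) stood at 153 against 410 CPM and at 138 against 520 CPM. All 3 genes were lower in members of both libraries. Others among the 15 lowest were Gpr160, Clec2l, Foxr1, Crispld1, St8sia4, Zfhx3, Plac8 and Tspan8, with log2 ratios from -1.21 to -2.00.

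Receptor genes for the ligands of the score went both ways. Csf1r, the receptor for Csf1, stood at 1385 against 2029 CPM and at 1286 against 2016 CPM. Igf1r had 1.55 against 4.96 CPM and 3.24 against 4.304 CPM. Itgb1 and Itgb5, integrin chains of osteopontin receptors, had log2 ratios of -0.55 and -0.61 and of -0.67 and -0.76. Itgb3, another such chain, was higher at a low level, at 5.44 against 1.54 CPM and at 5.94 against 2.87 CPM, and Itgav was split, with ratios of 0.14 and -0.39. In the list of osteopontin receptors and matrix genes, 8 of 13 were lower in both libraries, where 50.7% of all measured genes were, and 3 higher, with medians of -0.55 and -0.61. After thinning, the medians were -0.20 and -0.48. Igfbp4, an IGF binding protein, stood at 8.80 against 47.9 CPM and at 8.28 against 55.0 CPM.

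Cycle genes outside the 6 used as a gate were lower in members, 17 of 22 in both libraries, with medians of -0.63 and -0.59. For this and the next lists, 26.3% of all measured genes were higher and 50.7% lower in both libraries. Ccnd1 (cyclin D1) stood at 129 against 295 CPM and at 129 against 314 CPM. Cdkn1a, the inhibitor p21, went against the list with log2 ratios of 1.08 and 1.79. Of 12 interferon response genes, 9 were lower in both and 1 higher, with medians of -0.42 and -0.39. Oasl2 stood at 37.3 against 85.0 CPM and at 47.4 against 112 CPM. In the list of antigen presentation 2 of 12 genes were higher and 5 lower in both, and B2m differed by log2 0.02 and 0.10. Phagocytosis receptors went both ways, 12 of 27 higher and 11 lower, with Axl at log2 ratios of 0.81 and 0.84 and P2ry6 at -1.25 and -1.16. Actin, annexin and S100 genes were higher in 7 and lower in 11 of 22 cases, near the shares of all measured genes. Of 19 immature or embryonic microglia genes, 9 were higher and 10 lower in both.

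Markers of other cells were found in members at levels that varied by list. For neurons, 20 markers were matched and 4 measured, at a summed 65.7 CPM in dexamethasone and 151 CPM in control members against 129 and 290 CPM in negatives, with Snap25, Rbfox3 and Gad1 at 0 in members. Of 15 oligodendrocyte lineage markers, 3 were measured and 8 were at 0, at a sum of 69.6 and 87.1 CPM against 87.0 and 97.3 CPM. Of 14 matched endothelial, pericyte and choroid markers, 3 were measured and 9 were at 0, at 16.0 and 22.9 CPM against 14.4 and 52.9 CPM. Of 15 astrocyte markers, 6 were measured, with Gfap, Aqp4 and Slc1a2 at 0, at 585 and 599 CPM against 666 and 740 CPM. Of 13 neutrophil and monocyte markers, 3 were measured and 8 were at 0, at 328 and 345 CPM against 496 and 418 CPM. Of 12 erythroid markers, 4 were measured and 4 were at 0, at 2752 and 362 CPM against 2112 and 728 CPM. The list of border macrophage markers outside the rule had 14 matched and 8 measured genes, and 2 (Cd209f and Clec4n) at 0. Of the 8, 6 were lower and 1 higher in members of both libraries, where 50.7% and 26.3% of all measured genes were. Their summed level was 17425 CPM in dexamethasone and 18957 CPM in control members, most of it Apoe, which microglia express too. Lyve1 stood at 898 CPM against 739 and at 783 against 936 CPM. Pf4, which is a gate gene, was higher in members, at 212 against 108 CPM and at 228 against 86.2 CPM, below the limit of the gate. The part of these cells in the results was not tested.

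Within the gate, genes were graded along the score. The positive cells were divided into 4 groups of nearly equal size by score, of which score groups 3 and 4 are the members. Cd8a stood at 4.96 CPM in dexamethasone negatives and at 6.58, 20.9, 56.2 and 287 CPM in score groups 1 to 4, and in the control library at 6.90, 7.88, 28.6, 78.8 and 342 CPM. Anxa5 went from 6.67 to 13.9, 33.8, 68.6 and 274 CPM, and from 11.03 to 17.3, 32.6, 72.0 and 283 CPM. Both were higher in each further group in both libraries. The score did not use them, but they were named for high ratios in members. A rise into groups 3 and 4 was thus built in. P2ry12 was lower in each further group, at 234, 188, 160, 134 and 61.6 CPM, and in the control at 294, 245, 213, 138 and 88.6 CPM. Spp1, which the score uses, stood apart with 133 and 141 CPM in group 3 and 2356 and 2272 CPM in group 4. In group 1, whose score is capped by the rule, it had 10.96 and 10.88 CPM, below the 113 and 61.0 CPM of negatives. Median depth was also higher in group 4, at 11359 and 10977 UMIs against 8770 and 8912.5 UMIs in group 3.

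**Figure D4:**
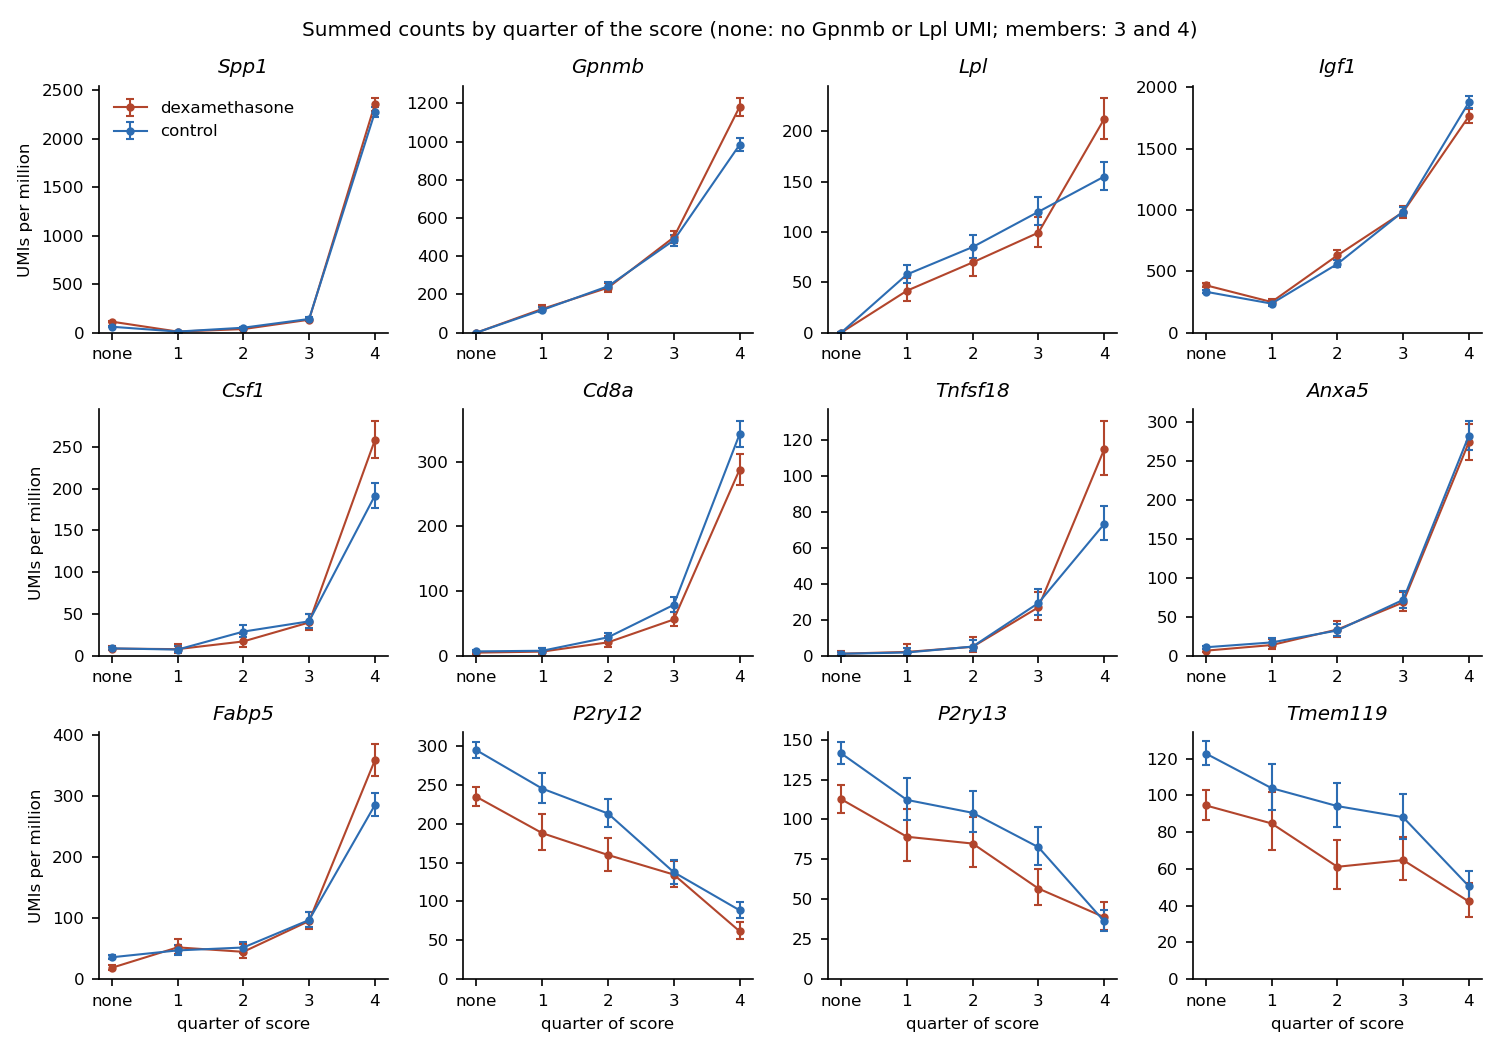
CPM (vertical axis, from 0) of 12 genes in cells without Gpnmb or Lpl (none) and in score groups 1 to 4 of the cells with either, for the dexamethasone (red) and control (blue) library; bars are exact Poisson intervals at the 95% level, for counting error only. The first 5 genes make up the score, Cd8a, Tnfsf18, Anxa5 and Fabp5 are highest in group 4, and P2ry12, P2ry13 and Tmem119 are lowest there.

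Members without Spp1 were compared with members that carried it, a split made after the data were seen. The 215 and 287 members with no Spp1 UMI stood above negatives in the genes outside the rule given here. Those genes were named as highest in all members, of which these cells were 58.7% and 53.8%. High ratios were thus largely built in. Cd8a stood at 71.4 CPM in dexamethasone and 143 CPM in control members without Spp1, log2 ratios of 3.85 and 4.37 over negatives. Anxa5 had ratios of 3.55 and 3.57 and Tnfsf18 of 5.27 and 5.14. The same genes were higher again in members with Spp1, where Cd8a stood at 291 and 315 CPM and Anxa5 at 283 and 254 CPM. Lower in members with Spp1 were Hmox1 (haem oxygenase 1), at 289 against 430 CPM and 293 against 502 CPM, and Entpd1 (the ectonucleotidase CD39), at 57.9 against 89.3 CPM and 59.4 against 95.4 CPM. P2ry12 differed less, at 83.4 against 109 CPM and 108 against 111 CPM. Depth differed between the 2 kinds, with medians of 8858 and 9121 UMIs in members without Spp1. Members with 1 to 9 Spp1 UMIs had medians of 10307 and 9688.5 UMIs, and those with 10 or more had 12605 and 11797.5 UMIs. The part of depth was not tested.

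Members made up a larger share of non-cycling microglia in the dexamethasone library. They were 366 of 1430 cells there (25.6%, 23.3 to 27.9%) and 533 of 2873 in the control library (18.6%, 17.1 to 20.0%), a difference of 7.04 points (4.36 to 9.78). Gpnmb- or Lpl-positive cells as a whole were 46.2% and 39.6%. Dexamethasone cells of this gate were deeper, with a median of 7952.5 against 6891 UMIs. With every cell thinned to 3800 UMIs and the whole rule reapplied, members were 360 of 1803 cells (20.0%, 18.1 to 21.9%) and 504 of 3279 (15.4%, 14.2 to 16.7%), a difference of 4.60 points (2.37 to 6.87). Thinning also lets through cells whose few cycle UMIs are lost, left out 93 dexamethasone and 275 control cells of the gate that were shallower, and moved the score boundary to 0.158%. The direction was the same in both counts, while its size depended on where the rule was drawn. With score group 4 alone as members, the difference was 2.25 points, and with at least 2 UMIs of Gpnmb and Lpl 3.56 points. The interval covers counting error and not the spread between embryos or pools, which 1 library a group cannot give.

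Among cycling microglia, which the rule leaves out, 11.8% of 1958 dexamethasone cells (10.4 to 13.4%) and 10.6% of the 3325 in the control (9.62 to 11.7%) passed the other gates and the score boundary. Those 2 intervals overlap. Thinned, the shares were 8.44% and 6.65%. In border-macrophage-like cells, 10.6% of 208 and 9.32% of 472 did, with overlapping intervals.

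Between the libraries, most genes past 1.5-fold in members were past it in negatives too. Over 2681 genes, 53 were at least 1.5-fold higher in dexamethasone than in control members (1.98%) and 31 at least 1.5-fold lower (1.16%). Of the 53, 42 (79.2%) were also at least 1.5-fold higher in negatives, which were 80.8% of the 52 such genes there, and 53 of 53 had the same direction. Of the 31, 20 (64.5%) were shared, 57.1% of 35, and 31 of 31 had the same direction. Members and negatives of 1 library share its pool, capture and sequencing, so both values are given side by side.

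**Figure D5:**
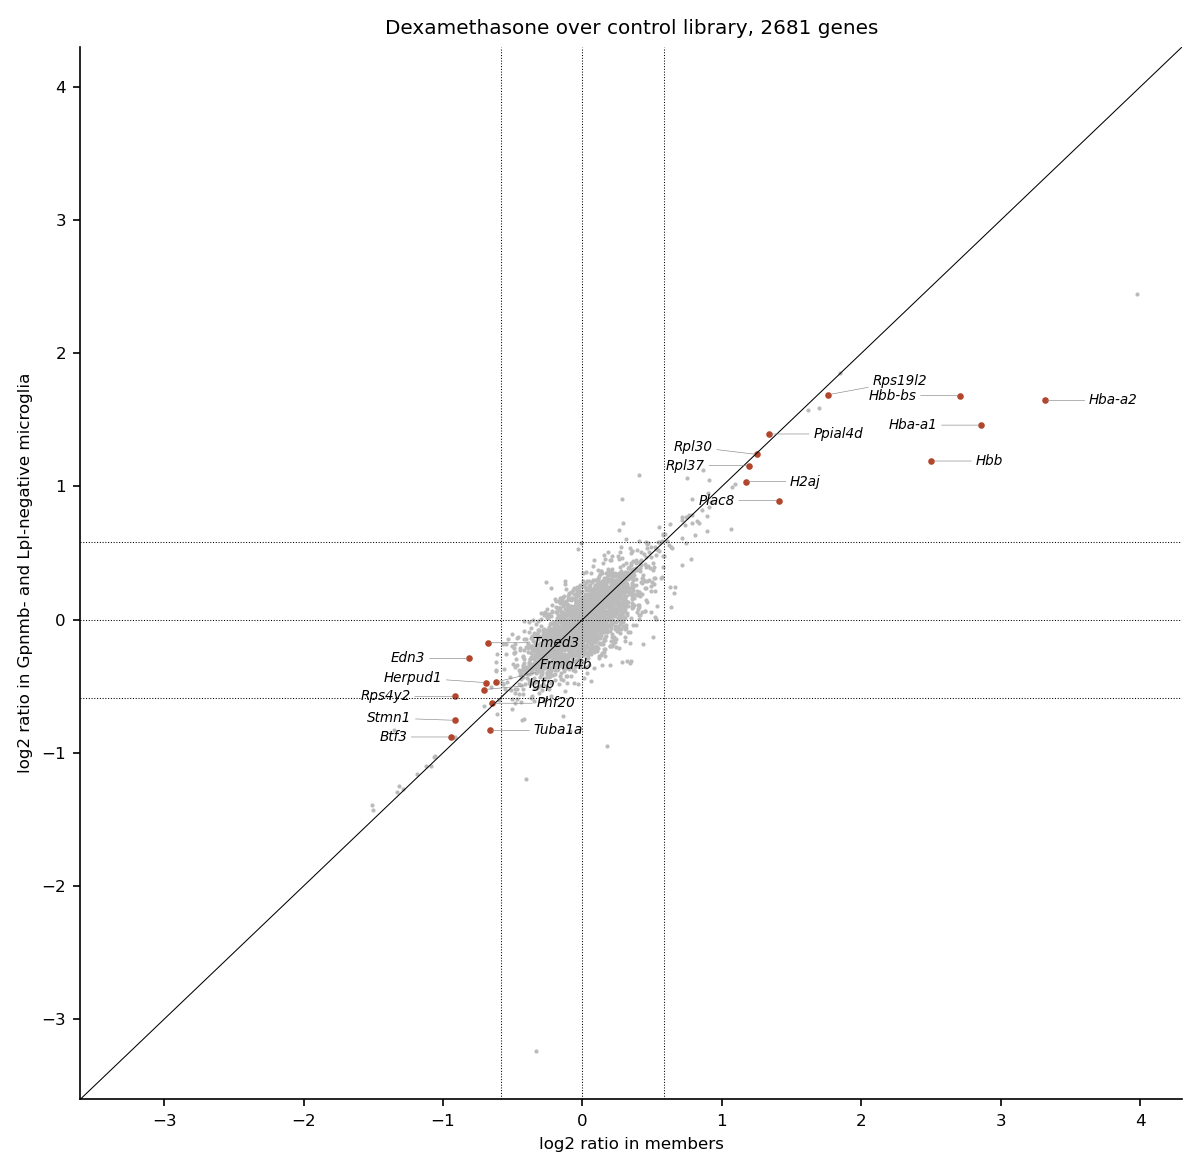
Log2 ratio of dexamethasone over control CPM in members (horizontal) and in Gpnmb- and Lpl-negative microglia (vertical) for 2681 genes; each grey point is 1 gene, red points are the 10 highest and 10 lowest in members by the naming rule, dotted lines mark 0 and 1.5-fold, and the solid line marks equal ratios. Ribosomal and mitochondrial genes lie near the solid line, and the globin genes lie to its right.

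Among the 2681 genes, the highest ratios in members belonged to globins, which come from red blood cells. Hba-a2 stood at 825 CPM in dexamethasone and 82.8 CPM in control members, and at 543 against 173 CPM in negatives. Of the 10627 globin UMIs in dexamethasone members, 2 cells held 6582 and 3445 (94.4% together), whereas the highest control member held 26. In negatives, 2 dexamethasone cells held 91.1% of 3173 Hba-a2 UMIs and 1 control cell 855 of 1933. Without cells of at least 1% globin UMIs, an alternative added after the data were seen, Hba-a2 was lower in dexamethasone members, at log2 -1.39. The globin ratios therefore rest on a few cells in members and negatives alike. Plac8, which was low in members, stood at 156 against 58.7 CPM in members (log2 1.41, 1.21 to 1.61) and at 361 against 194 CPM in negatives, and 1 dexamethasone member held 131 of its 602 UMIs.

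The other high ratios were those of Rps19l2, Rpl30, Rpl37, Ppial4d and H2aj, with log2 ratios from 1.17 to 1.76 in members and from 1.04 to 1.69 in negatives. Rps19l2 and Ppial4d are annotated copies of abundant genes whose reads can be split between near-identical sequences, so their levels are uncertain. Rpl30, a ribosomal protein, stood at 789 against 332 CPM in members and at 922 against 390 CPM in negatives. Of 13 mitochondrially encoded genes, 12 were lower in dexamethasone members and 11 at least 1.5-fold, by a median of -1.06 in members and -1.02 in negatives. Of all measured genes, 50.6% were higher in dexamethasone members and 5.54% at least 1.5-fold lower. The mitochondrial share of a cell's UMIs had medians of 3.05% in dexamethasone and 6.36% in control members, and its part in the other ratios was not tested beyond the alternative scalings.

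The 10 lowest of the named genes in dexamethasone members were Btf3, Rps4y2, Stmn1, Edn3, Igtp, Herpud1, Tmed3, Tuba1a, Phf20 and Frmd4b. Btf3, a subunit of the nascent polypeptide complex, stood at 47.4 against 90.9 CPM in members and 60.7 against 112 CPM in negatives. Edn3 (endothelin 3) stood at 36.2 against 63.6 CPM in members, a log2 ratio of -0.81 (-1.10 to -0.52), and at -0.29 in negatives. Herpud1, a gene of the endoplasmic reticulum stress response, stood at 83.6 against 135 CPM, with ratios of -0.69 (-0.88 to -0.50) in members and -0.47 in negatives. Frmd4b, 1 of the 15 genes highest in members, stood at 132 against 203 CPM, with ratios of -0.62 in members and -0.47 in negatives. Whether any gene differed more in members than in negatives was not tested. Stmn1 and Tuba1a are abundant in neurons, and the summed neuron markers were lower in dexamethasone members, at 65.7 against 151 CPM. The part of neuronal RNA was not tested.

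Members of both libraries passed 1 pooled score boundary, so similar levels of the score genes follow in part from the rule. Genes outside the rule that were high in members went in either direction between the libraries. Dexamethasone over control, the log2 ratio in members was -0.09 for Spp1, 0.15 for Gpnmb, 0.17 for Lpl, -0.11 for Igf1 and 0.26 for Csf1, all of which the rule used. In genes it did not use, the ratio was -0.39 for Cd8a (-0.52 to -0.25), 0.41 for Tnfsf18 (0.17 to 0.65), -0.14 for Anxa5 and 0.18 for Fabp5. The list of axon-tract genes had 3 of 31 genes at least 1.5-fold higher in dexamethasone members, where 6.64% of measured genes were, and 0 at least 1.5-fold lower, where 5.54% were. Its median was -0.02, beside 0.00349 over all measured genes. Of the 44 lysosome genes, 15 were higher in dexamethasone members, where 50.6% of measured genes were, with a median of -0.10, and 1 was at least 1.5-fold higher and 0 lower.

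Genes known to respond to the glucocorticoid receptor showed no common direction. Of 19 measured, 10 were higher and 9 lower in dexamethasone members, 1 and 3 of them by at least 1.5-fold, with a median of 0.03. Of all measured genes, 50.6% were higher, 6.64% at least 1.5-fold higher and 5.54% at least 1.5-fold lower. Fkbp5, a chaperone gene that glucocorticoids induce, stood at 8.54 against 18.2 CPM in members (log2 -1.09, -1.70 to -0.51) and at 12.5 against 20.8 CPM in negatives. Sgk1, a kinase that glucocorticoids also induce, stood at 145 against 157 CPM. Mt1 stood at 269 against 197 CPM in members. Of 12 interferon response genes, 8 were lower in dexamethasone members and 4 at least 1.5-fold, with a median of -0.30 in members and -0.36 in negatives. Of 23 early and dissociation stress genes, 18 were higher in dexamethasone members and 6 at least 1.5-fold, with medians of 0.22 and 0.08. The antigen presentation list had 5 of 12 genes at least 1.5-fold higher and a median of 0.22 in members, which was -0.059 after thinning. F13a1, the A subunit of coagulation factor XIII, stood at 18.9 against 1.08 CPM in members (log2 4.13, 2.94 to 5.62) and at 94.4 against 15.1 CPM in negatives. F13a1 was low in members of both libraries, with 73 UMIs in 28 dexamethasone and 6 UMIs in 6 control cells.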

How the data were processed

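The deposited values are raw UMI counts per gene and barcode, made by the authors with Cell Ranger 7.0.0 against Rnor_6.0, per the submitters' processing notes. No cell annotation was used and doublets were not called; leaving out deep cells stood in as an alternative. Intronic reads, strand settings and cell calling are not given in the sources used here. Features of 1 symbol were summed. Counts were added up per class and library and divided by the class total. Log2 ratios are of those CPM, with exact conditional binomial intervals, exact Poisson intervals for CPM and Clopper-Pearson intervals for shares, which cover counting error only; a total of 0 stood at a floor of 3 counts. For thinning, each cell was drawn down to 3800 UMIs, the 10th percentile of the gated control cells rounded down to 100, shallower cells were left out, and the rule was reapplied. The share difference combines both intervals.

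Members and gene lists (28 lists, 686 entries, 26 not matched by symbol) were chosen with earlier results of these data known. Genes were named by a fixed rule: without rule genes, clone-type names and mitochondrial genes, the 15 highest and 15 lowest ratios of members over negatives by the smaller of the 2 libraries, the 10 highest and 10 lowest of dexamethasone over control in members, the 4 largest differences between libraries in each direction, 2 abundant and 2 extreme genes per list, and P2ry12, Tmem119, F13a1, Fkbp5 and the 18 rule genes. Some genes that the rule names are not reported here. Other list genes named were picked after their values were seen. The calculations were tested on simulated data. Python 3.11.15, numpy 2.4.6, scipy 1.17.1 and pandas 2.3.3 were used.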

Additional observations from a re-analysis of the deposited data

Results flagged for a closer look

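In 7 named genes the ratio of members over negatives had opposite directions in the libraries, with each counting interval on its own side of 0. The difference between the libraries was not tested, and 1 library a group cannot test it. For the globins, the log2 ratio in the dexamethasone library minus that in the control was 1.67 for Hba-a2, 1.40 for Hba-a1 and 1.31 for Hbb. Hba-a2 stood at 0.60 and -1.07, and 2 dexamethasone members held 96.2% of its UMIs there, 2 dexamethasone negatives 91.1% and 1 control negative 44.2%. Without cells of at least 1% globin UMIs it stood at -0.61 and -0.22, so the opposite directions were lost. S100a9, a neutrophil gene, stood at -1.94 and 2.47, a difference of -4.41, and 1 control member held 96 of its 113 UMIs and 1 dexamethasone negative 29 of 58. Fcnb (ficolin B) stood at -0.48 (-0.89 to -0.07) and 1.29 (0.91 to 1.67), a difference of -1.76, and 1 control member held 44 of 130 UMIs and 1 dexamethasone negative 97 of 160 (60.6%). The values of Hba-a2, S100a9 and Fcnb thus rest in part on single cells. Rhox5, a homeobox gene, differed by -1.12, on 66 and 50 UMIs in members. Tmco6 differed by -1.04, from -0.52 to 0.52, with no member cell holding more than 3 of its UMIs.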

How the results depend on the processing

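With 13 alternatives planned and 1 added after the data were seen (without cells of at least 1% globin UMIs), the larger share of members in the dexamethasone library kept its direction in each that could move it. The difference was 4.10 points with cycling cells let in, 3.56 with at least 2 UMIs of Gpnmb and Lpl, 2.25 with score group 4 alone and 3.34 with the median taken within each library, and lay within the main interval in the others. Genes 2-fold higher in members numbered 111 with score group 4 alone and 209 with a minimum of only 20 UMIs, and genes 2-fold lower 79 and 180, 58 with at least 2 UMIs of Gpnmb and Lpl and 23 when thinned. Genes 1.5-fold higher in dexamethasone members numbered 89 when thinned and 579 at 20 UMIs. Those lower numbered 47 without cells over 2 times the median UMIs, 55 with score group 4 alone, 63 when thinned and 570 at 20 UMIs, where fewer counts alone widen the ratios. Score group 4 alone shared 60 of the 61 higher genes, and thinning 47; of the 36 lower genes, only 17 were shared with cycling cells let in.

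Counting as a reversal a change of sign from a gene ratio of at least 1.5-fold or a list median of at least 0.2, reversals were limited to red cell and neutrophil genes and to the antigen presentation and chemokine lists; the cause was not tested beyond the single cells named above. Without cells over 2 times the median UMIs, members over negatives in the dexamethasone library became -2.24 for the erythroid list and -2.80 for Hba-a2, and in the control -0.44 for the neutrophil list and -0.042 for S100a9; dexamethasone over control became -1.08 and 0.19 for the lists, -1.08 for Hba-a1 and Hbb, -1.14 for Hba-a2 and -0.84 for Hbb-bs. With C1q at 1.2%, the neutrophil list and S100a9 became -0.049 in the control, and the list 0.081 over control. With cycling cells let in, the dexamethasone values were -0.48 for the erythroid list, -0.38 for Hba-a2, 0.45 for the neutrophil list and 1.36 for S100a9, and the neutrophil list 1.07 over control. With score group 4 alone they were -3.84 and -4.07, in the control -0.39 for the neutrophil list and S100a9, and over control -1.27 for the erythroid list, -1.24 for Hba-a1, -1.31 for Hba-a2, -0.97 for Hbb, -1.29 for Hbb-bs and -0.13 for antigen presentation. Thinned, they were -1.03 and -0.57, with 0.050 for chemokines (0.044 as a mean over cells), and over control -0.059 for antigen presentation and 0.038 for the neutrophil list. The erythroid list was -0.21 with the median within each library. Without globin-rich cells it was -0.36, Hba-a2 -0.61, and over control -1.15, -1.28 for Hba-a1, -1.39 for Hba-a2, -0.98 for Hbb and -1.03 for Hbb-bs. Of 4706 recomputed list and gene values, 820 moved past the interval of the reported value without a reversal. For a list, the range used ran from the median of its genes' lower bounds to the median of their upper bounds. That range is not an interval of the list median.

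No paired analysis was possible because each group has 1 library and the labels carry no replicate numbers. No result has a replicate check, and depth limits genes under about 50 CPM.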
